A study of Mus musculus with 8 samples.

Results

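The genes described here are *Trp53*, which encodes the transcription factor p53, its inhibitors *Mdm2* and *Mdm4*, and 7 genes that p53 is known to switch on, *Ccng1*, *Zmat3*, *Phlda3*, *Sesn1*, *Trp53inp1*, *Aen* and *Gadd45a*. They were chosen by name, with earlier results of these data known, and all 10 are among the 54838 gene identifiers counted in this series. The series holds 8 poly(A) RNA libraries of natural killer (NK) cells from the spleen of mice. In 4 of them (teNK) the cells came from MMTV-PyMT mice, described as tumour-bearing, in which a mammary promoter drives the polyoma middle T oncogene and mammary tumours form. In the other 4 (hNK) the donors were healthy FVB/n wild-type animals. Cells of both groups were sorted as CD45+, CD49b+ and CD3-, and spent 12 to 16 h in medium with cytokines before RNA was taken. The sources used here do not give the background strain of the MMTV-PyMT animals, their age, the cytokines or how many mice stand behind a library. Replicates are not said to be separate animals, so each p-value covers the spread among these 8 libraries alone, some of which may be technical. Several flow cell lanes are mentioned for teNK and not for hNK, so lane layout and group cannot be told apart.

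p53 is a transcription factor that is kept scarce in resting cells, because MDM2 marks it for destruction and MDM4 blocks its activity. DNA damage and other stresses release it from both, and it then turns on genes that stop the cell cycle, repair DNA, adjust metabolism or kill the cell. *Mdm2* is itself a p53 target, which closes a feedback loop. The control of p53 is exerted largely on the protein, so a change in *Trp53* messenger RNA is not a measure of p53 activity.

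The members did not move one way. Of the 9 with enough reads to test, 5 rose in teNK (*Gadd45a*, *Trp53inp1*, *Sesn1*, *Mdm4* and *Mdm2*), 2 fell (*Aen* and *Trp53*), and *Ccng1* and *Zmat3* did not pass the test. Calls required an adjusted p below 0.05 in edgeR's quasi-likelihood test, with Benjamini-Hochberg adjustment over all 13903 genes tested. By the same rule 51.9% of all tested genes were called, 26.4% higher and 25.6% lower, so 7 calls among 9 members stand against a background in which a call is common. The median log2 fold change (teNK over hNK) was 0.21 over the 9 members and -0.02 over all tested genes. Without the shallowest 2 libraries (hNK replicates 3 and 4) 3 members rose and 2 fell, the calls of *Mdm2* and *Mdm4* being lost. In that fit 6767 of 14535 tested genes were called. With all 8 libraries the absolute log2 fold change over all tested genes had a median of 0.32, with 0.67 as the upper quartile. *Mdm2* and *Mdm4* changed by less than that median, *Trp53* and *Sesn1* by an amount between the median and the upper quartile, and *Trp53inp1*, *Gadd45a* and *Aen* by more than the upper quartile.

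**Figure D1:**
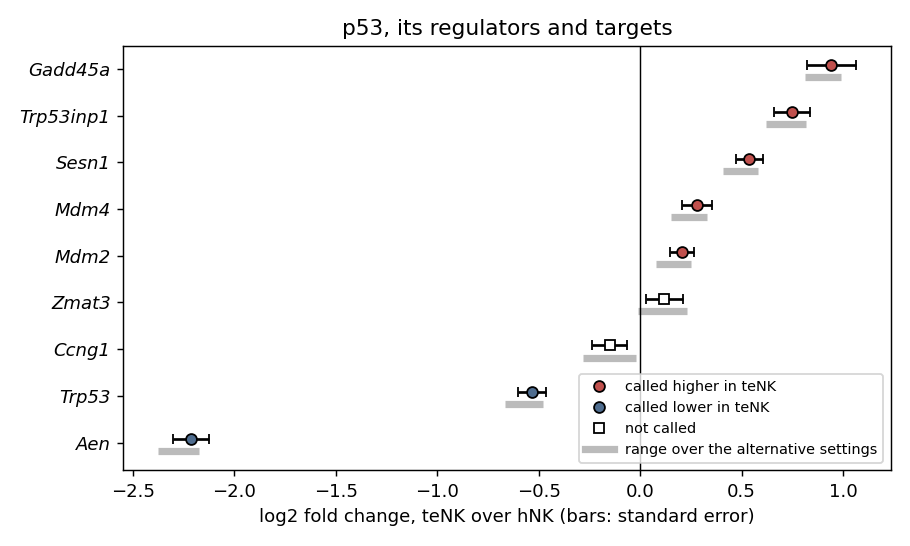
Log2 fold change (horizontal axis, teNK over hNK) of the 9 tested members, one per row, with its standard error; grey bars give the range over 19 alternative settings. *Aen*, at -2.21, stands far to the left of the other members, which lie between -0.53 and 0.94.

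p53 binds DNA as a tetramer, and its response element is a pair of copies of a 10-base consensus motif that reads alike on both strands. Promoters are shown because the members known as p53 targets moved in different directions. *Trp53* and *Mdm4* are not given here as such targets, and their windows were searched with the rest. RefSeq promoter windows (GRCm38.p6, 250 bases before to 50 after a gene's start, C57BL/6J sequence) matched 8 of the 10 members by symbol. No window was found for *Zmat3* and *Trp53inp1*, which were therefore not searched. An exact match to the 10-base p53 motif stood in the windows of 6 of these 8 genes (*Trp53*, *Mdm2*, *Ccng1*, *Sesn1*, *Aen* and *Gadd45a*), whereas 9.55% of all 27025 genes with a window held one. Among the other listed p53 targets, 11 of 36 genes with a window held one. Of these 6 genes 3 rose, 2 fell and 1 was not called. The stretches below run 5′ to 3′ on the gene's strand, with the motif in capitals. Those of *Aen* and *Gadd45a* lie inside annotated exons and are kept to 30 bases, and that of *Trp53* is shorter than the others outside exons. They lie at chr11:69580256-69580338 (*Trp53*, plus strand), chr10:117710890-117710989 (*Mdm2*, minus strand), chr11:40755417-40755516 (*Ccng1*, minus strand), chr10:41887221-41887320 (*Sesn1*, plus strand), chr7:78895927-78895956 (*Aen*, plus strand) and chr6:67037428-67037457 (*Gadd45a*, minus strand). The motif ended 65 bases before the start of *Trp53*, 176 before that of *Mdm2*, 175 before that of *Ccng1*, and 163 before the downstream start of *Sesn1*. In *Gadd45a* it ended 30 bases before the RefSeq start but lay inside an exon of that gene in GENCODE M21. In *Aen* it ended 111 bases before one RefSeq start, and its first base lay 10 bases after another. There it lay inside an annotated exon that begins further upstream. None of the 8 members with a window held a pair of such motifs within 13 bases of each other, so the capitals mark single motifs. Sequence outside the windows was not searched. A match of letters is not a binding site, and binding was not measured here.
Trp53: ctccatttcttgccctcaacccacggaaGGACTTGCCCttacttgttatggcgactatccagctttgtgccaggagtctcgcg
Mdm2: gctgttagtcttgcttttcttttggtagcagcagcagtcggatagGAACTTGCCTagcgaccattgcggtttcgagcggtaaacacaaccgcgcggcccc
Ccng1: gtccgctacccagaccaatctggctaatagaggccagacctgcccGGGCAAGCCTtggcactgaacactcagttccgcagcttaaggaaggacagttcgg
Sesn1: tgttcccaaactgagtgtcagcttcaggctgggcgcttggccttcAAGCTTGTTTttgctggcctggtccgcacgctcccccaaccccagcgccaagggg
Aen: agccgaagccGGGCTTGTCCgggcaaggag
Gadd45a: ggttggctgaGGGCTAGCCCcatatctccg

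Reads on genes ranged from 13111043 to 16209895 in teNK and from 5202131 to 12419324 in hNK, and the hNK counts are thus the less precise ones. Levels are given as CPM, read counts scaled to library size with TMM factors, and 3 counts in a library corresponded to 0.185 to 0.229 CPM in teNK and 0.242 to 0.577 CPM in hNK by its total. The first principal component of log2 CPM held 77.0% of the variance and separated the groups. All 10 NK cell markers listed for the check were read in both groups, with summed levels of 8453 to 9225 CPM in teNK and 4512 to 5220 CPM in hNK. Singly 9 of them rose and 1, *Eomes*, fell (log2 fold change -0.30 ± 0.07), where 51.9% of all tested genes were called. Markers of cells other than NK cells also differed. All 9 tested platelet markers (of 10) and all 8 B cell markers rose, with sums of 175 to 298 CPM in teNK against 17.98 to 41.9 CPM in hNK for platelets, and 33.3 to 55.3 CPM in teNK against 0.748 to 5.28 CPM in hNK for B cells. *Gp1bb* was at 0 in all hNK libraries, and no B cell marker was at 0 throughout a group. Sums of 8 myeloid markers were 71.0 to 96.3 CPM in teNK and 10.3 to 15.2 CPM in hNK, in teNK mostly *Itgax*, which NK cells also express. Among the myeloid markers, *S100a8* and *S100a9* were at 0 in hNK. Sums of 8 T cell markers were 29.3 to 39.6 CPM in teNK and 25.9 to 47.9 CPM in hNK, with *Cd8a* and *Cd5* at 0 in hNK. Within that list 5 genes were tested and 40% called: *Cd3d* rose (log2 fold change 1.22 ± 0.24) and *Cd6* fell (-4.31 ± 0.38). Basophil markers summed to 2.44 to 4.13 CPM in teNK and 0.0831 to 1.26 CPM in hNK, with *Fcer1a* and *Prss34* at 0 in hNK. Erythroid markers summed to 1.85 to 6.86 CPM in teNK and 0 to 0.361 CPM in hNK, with *Hba-a2* at 0 in both groups and *Hbb-bs* and *Klf1* at 0 in hNK. The part of these cells in the members' differences was not tested. In bulk RNA, fewer cells with a transcript and less of it per cell cannot be told apart.

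*Trp53* (ENSMUSG00000059552, chromosome 11, 69580359 to 69591873, GRCm38) fell. It measured 59.0, 57.3, 64.3 and 67.3 CPM in teNK libraries 1 to 4, against 88.1, 83.8, 90.9 and 96.7 CPM in hNK libraries 1 to 4. Every teNK library lay below every hNK library. The mean was 62.0 ± 4.66 CPM in teNK and 89.9 ± 5.39 CPM in hNK (SD, n = 4 each), a log2 fold change of -0.53 ± 0.07 (SE, edgeR adjusted p = 8.82e-06). *Wrap53*, the neighbour that is transcribed away from *Trp53* on the other strand, was not called, at 14.5 ± 1.496 CPM in teNK and 15.3 ± 0.997 CPM in hNK (log2 fold change -0.08 ± 0.11, edgeR adjusted p = 0.547). The related factors *Trp63* and *Trp73* had 1 read each in all 8 libraries together. The processed pseudogene *Trp53-ps* had 5 to 8 reads in each teNK library and 1 to 6 in each hNK library, against 801 to 902 reads of *Trp53* in teNK and 535 to 1060 in hNK.

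Both inhibitors of p53 rose by small amounts. *Mdm2* (ENSMUSG00000020184, chromosome 10, 117688875 to 117710758), the ubiquitin ligase that is also a p53 target, measured 164, 168, 171 and 157 CPM in teNK libraries 1 to 4, against 143, 147, 149 and 132 CPM in hNK libraries 1 to 4. Its groups did not overlap, and its log2 fold change was 0.21 ± 0.06 (edgeR adjusted p = 0.00788). *Mdm4* (ENSMUSG00000054387, chromosome 1, 132959484 to 133030561), its partner without strong ligase activity of its own, measured 337, 361, 297 and 295 CPM in teNK libraries 1 to 4. In hNK libraries 1 to 4 *Mdm4* measured 291, 258, 260.4 and 252 CPM. The groups came close, the lowest teNK library lying just above the highest hNK library, and the log2 fold change was 0.28 ± 0.08 (edgeR adjusted p = 0.00512). Both calls depended on the scaling: with library totals alone the median of all genes moved to -0.15, and neither gene was called (log2 fold change 0.08, adjusted p = 0.267 for *Mdm2*; 0.15, adjusted p = 0.117 for *Mdm4*; edgeR). Without hNK replicates 3 and 4 the edgeR adjusted p was 0.0523 for *Mdm2* and 0.0561 for *Mdm4*.

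Relative to *Trp53* in the same library, both inhibitors were more abundant in teNK, whatever the scaling. The ratio of *Mdm2* to *Trp53* CPM was 2.68 ± 0.253 in teNK and 1.596 ± 0.164 in hNK (SD, n = 4 each). That of *Mdm4* to *Trp53* was 5.25 ± 0.910 in teNK and 2.96 ± 0.297 in hNK. The ratio of *Mdm2* to *Mdm4* was 0.515 ± 0.0499 in teNK and 0.540 ± 0.0380 in hNK, a difference smaller than the spread between libraries. These are ratios of levels not corrected for length, so only their difference between groups carries meaning.

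**Figure D2:**
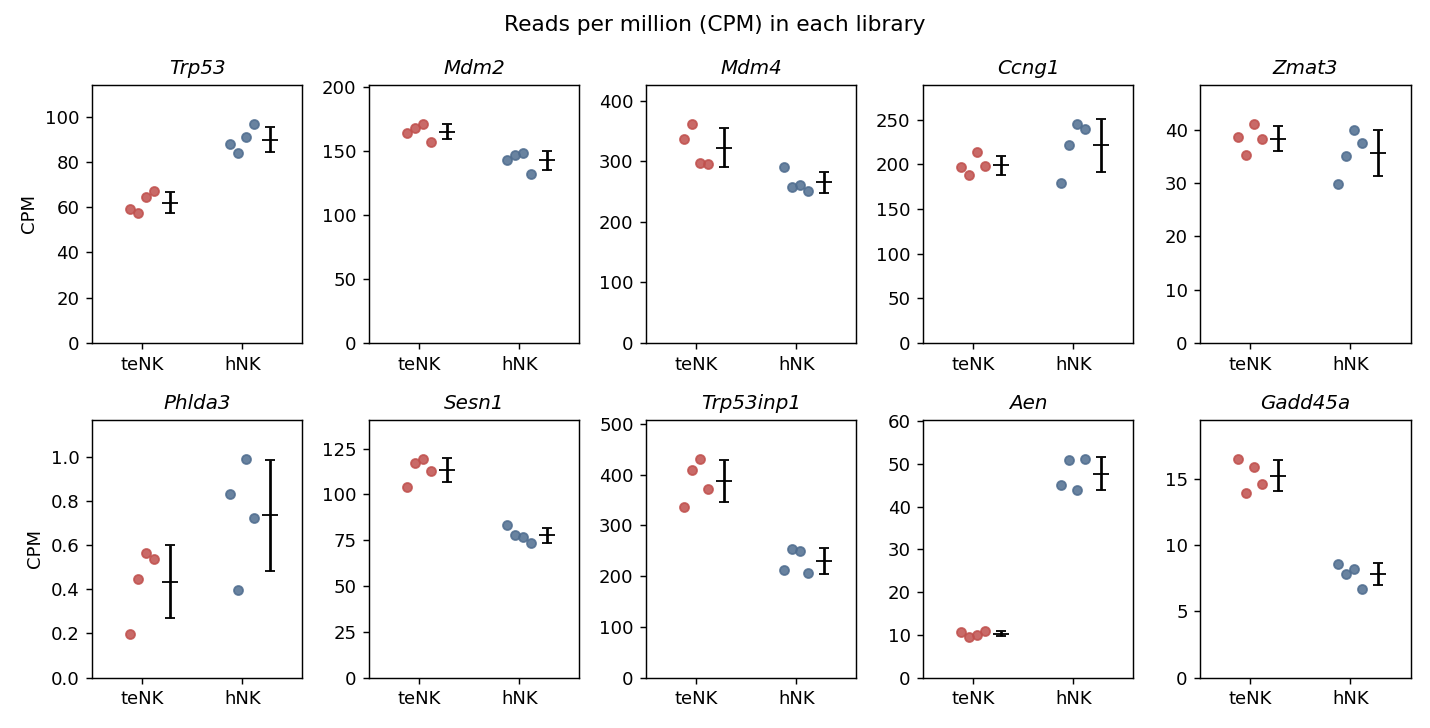
CPM (vertical axes, each from 0) of the 10 members in the 4 teNK libraries (red, left) and the 4 hNK libraries (blue, right); the black bar beside each group is its mean with its SD. The groups are separate for 7 members and overlap for *Ccng1*, *Zmat3* and *Phlda3*. Of all tested genes 46.5% had groups that did not overlap.

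*Aen*, which encodes the apoptosis-enhancing nuclease, changed most among the members. It (ENSMUSG00000030609, chromosome 7, 78895854 to 78911209) measured 10.8, 9.59, 9.96 and 10.9 CPM in teNK libraries 1 to 4, against 44.98, 50.9, 43.9 and 51.1 CPM in hNK libraries 1 to 4. The highest teNK library was far below the lowest hNK library. The mean was 10.3 ± 0.625 CPM in teNK and 47.7 ± 3.83 CPM in hNK, a 4.63-fold fall with a log2 fold change of -2.21 ± 0.09 (edgeR adjusted p = 5.76e-12). It stayed called under all 19 alternative settings, with log2 fold changes from -2.37 to -2.17. *Isg20*, a related exonuclease gene, fell too, to 0.683 ± 0.196 CPM in teNK against 9.78 ± 2.07 CPM in hNK (log2 fold change -3.84 ± 0.24). *Isg20l2*, another gene of this family, measured 57.3 ± 2.96 CPM in teNK and 58.0 ± 2.26 CPM in hNK and was not called.

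*Gadd45a* and *Trp53inp1* rose most. *Gadd45a* (ENSMUSG00000036390, chromosome 6, 67035096 to 67037457), which encodes a small protein that binds PCNA and activates stress kinases, measured 16.5, 13.97, 15.9 and 14.6 CPM in teNK libraries 1 to 4. In hNK libraries 1 to 4 it measured 8.56, 7.86, 8.25 and 6.68 CPM, all below the lowest teNK library. Its log2 fold change was 0.94 ± 0.12 (edgeR adjusted p = 5.51e-06). Exons of the antisense gene *E230016M11Rik* cover 19.1% of its exon bases, and whether the counting used strand was not given in the sources used here. *E230016M11Rik* had 17 to 32 reads in each teNK library and 9 to 27 in each hNK library, against 191 to 251 of *Gadd45a* in teNK and 37 to 103 in hNK. *Gadd45b*, a paralog that NF-kappa-B induces, rose more, to 18.9 ± 3.42 CPM in teNK against 2.02 ± 0.345 CPM in hNK (log2 fold change 3.16 ± 0.18). *Gadd45g*, the third paralog, measured 3.16 ± 0.294 CPM in teNK and 3.41 ± 0.804 CPM in hNK and was not called. The ratio of *Gadd45b* to *Gadd45a* CPM was 1.24 ± 0.158 in teNK and 0.259 ± 0.0405 in hNK.

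*Trp53inp1* (ENSMUSG00000028211, chromosome 4, 11156431 to 11174379), a stress protein that promotes p53 phosphorylation and autophagy, measured 337, 409.7, 431 and 373 CPM in teNK libraries 1 to 4, against 211, 254, 249.9 and 206 CPM in hNK libraries 1 to 4. All teNK libraries were higher than all hNK libraries, and the log2 fold change was 0.75 ± 0.09 (edgeR adjusted p = 2.19e-06). Its paralog *Trp53inp2*, an autophagy gene, rose to 33.5 ± 4.61 CPM in teNK against 8.21 ± 2.63 CPM in hNK, a log2 fold change of 1.94 ± 0.16. The ratio of *Trp53inp1* to *Trp53inp2* CPM was 11.8 ± 2.48 in teNK and 30.1 ± 9.53 in hNK.

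The sestrins, which restrain the growth kinase mTORC1 when amino acids are short, split. *Sesn1* (ENSMUSG00000038332, chromosome 10, 41809935 to 41908424) measured 104, 117, 119 and 113 CPM in teNK libraries 1 to 4, against 83.3, 78.0, 76.5 and 73.5 CPM in hNK libraries 1 to 4. It rose, with groups that did not overlap and a log2 fold change of 0.54 ± 0.07 (edgeR adjusted p = 3.28e-06). *Sesn3*, which FOXO factors are known to induce, also rose, to 308 ± 17.0 CPM in teNK against 234 ± 23.9 CPM in hNK (log2 fold change 0.40 ± 0.07). *Sesn2*, a target of both p53 and the stress factor ATF4, fell to 12.9 ± 1.84 CPM in teNK against 37.1 ± 2.91 CPM in hNK (log2 fold change -1.51 ± 0.11, edgeR adjusted p = 4.35e-09). The ratio of *Sesn1* to *Sesn2* CPM was 8.87 ± 1.04 in teNK and 2.11 ± 0.262 in hNK. In the list of ATF4 and genes it drives, which holds *Sesn2*, 11 of 12 tested genes fell and none rose, where 25.6% of all tested genes were called lower. Among them *Trib3*, *Asns*, *Mthfd2* and *Atf5* had the smallest adjusted p, and *Mthfd2* measured 5.80 ± 0.680 CPM in teNK and 115 ± 16.9 CPM in hNK. The ATF4 list was chosen with earlier results of these data known, and *Sesn2* also counts among the other p53 targets below. A part of ATF4 in the fall of *Sesn2* was not tested.

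**Figure D3:**
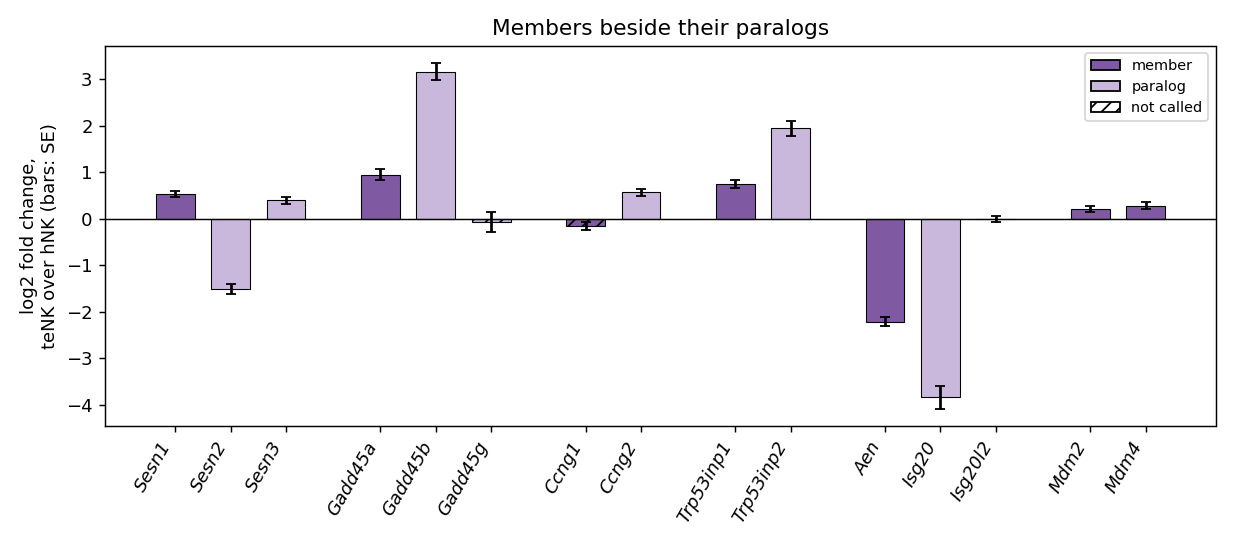
Log2 fold change (vertical axis, teNK over hNK, with SE) of members (dark bars) beside their tested paralogs (light bars), with *Mdm2* and *Mdm4* as a pair; hatched bars were not called. The sestrin family splits, *Sesn2* (-1.51) falling and *Sesn1* (0.54) and *Sesn3* (0.40) rising.

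*Ccng1* and *Zmat3*, both widely used p53 target genes, did not pass the test. *Ccng1* (ENSMUSG00000020326, chromosome 11, 40748552 to 40755311), which encodes cyclin G1, a partner of a phosphatase that acts on MDM2, measured 197, 188, 214 and 198 CPM in teNK libraries 1 to 4. In hNK libraries 1 to 4 it measured 179.6, 222, 245 and 239.9 CPM, and replicate 1 lay below all teNK libraries. The log2 fold change was -0.15 ± 0.08 (edgeR adjusted p = 0.149). Without hNK replicate 1 *Ccng1* was called lower (log2 fold change -0.24, edgeR adjusted p = 0.0037), as it was with library totals alone (-0.28, adjusted p = 0.00964). Its paralog *Ccng2*, which encodes cyclin G2 and is driven by FOXO factors, rose to 105 ± 4.21 CPM in teNK against 70.0 ± 7.85 CPM in hNK (log2 fold change 0.57 ± 0.07).

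*Zmat3* (ENSMUSG00000027663, chromosome 3, 32334792 to 32366014), a zinc finger gene whose protein binds RNA, measured 38.7, 35.4, 41.1 and 38.3 CPM in teNK libraries 1 to 4, against 29.8, 35.2, 39.9 and 37.6 CPM in hNK libraries 1 to 4. The groups overlapped and the log2 fold change was 0.12 ± 0.09 (edgeR adjusted p = 0.278), with the sign turned by library totals alone (-0.0093). *Phlda3* (ENSMUSG00000041801, chromosome 1, 135766119 to 135769136), a repressor of the survival kinase AKT, was near the detection limit and was not tested. It had 3, 7, 7 and 7 reads in teNK libraries 1 to 4 and 10, 5, 6 and 4 reads in hNK libraries 1 to 4. Those are 0.435 ± 0.166 CPM in teNK and 0.735 ± 0.251 CPM in hNK, with overlapping groups. Its paralog *Phlda1* rose to 14.2 ± 1.61 CPM in teNK against 1.28 ± 0.418 CPM in hNK, and *Phlda2* had 1 read in all.

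Levels of different members were compared per kilobase of annotated exon, on the scale of CPM per kilobase. The order in teNK was *Trp53inp1* (59.9), *Ccng1* (56.7), *Mdm2* (32.5), *Sesn1* (28.5), *Mdm4* (21.8), *Trp53* (15.3), *Gadd45a* (8.64), *Zmat3* (3.35), *Aen* (1.78) and *Phlda3* (0.279). Each neighbour in that order was separate from the next in all 4 teNK libraries except *Trp53inp1* and *Ccng1*, whose libraries overlapped. The order in hNK was *Ccng1* (63.1), *Trp53inp1* (35.6), *Mdm2* (28.1), *Trp53* (22.2), *Sesn1* (19.6), *Mdm4* (17.9), *Aen* (8.23), *Gadd45a* (4.44), *Zmat3* (3.12) and *Phlda3* (0.472). There *Trp53* overlapped with *Sesn1* and *Sesn1* with *Mdm4*, and the other neighbours were separate. *Aen* stood above *Gadd45a* and *Zmat3* in every hNK library and below both in every teNK library. Exons of all transcripts were summed, 14798 bases for *Mdm4* and 11435 for *Zmat3*, which lowers the values of genes with long rarely used ends. Within groups the coefficient of variation of CPM was 3.58% to 10.7% in teNK and 5.26% to 13.4% in hNK for the 9 tested members, smallest for *Mdm2* in teNK and for *Sesn1* in hNK.

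A further 43 known p53 targets were listed by role, and 36 of them had enough reads to test. Of these 13 rose, 11 fell and 12 were not called, a share of 66.7% called beside the 51.9% of all tested genes. Their median log2 fold change was -0.08, and the groups did not overlap for 21 of them, where 46.5% of all tested genes had groups that did not overlap. *Gdf15* and *Spata18* had no read in any library.

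Among 7 tested arrest genes 4 rose and 2 fell, a share of 85.7% called beside the 51.9% of all tested genes. *Cdkn1a*, which encodes the cell cycle inhibitor p21 and is the best known p53 target, fell to 5.62 ± 0.687 CPM in teNK against 38.3 ± 1.38 CPM in hNK (log2 fold change -2.76 ± 0.10, edgeR adjusted p = 1.92e-12). Its promoter window is shown because it was the only one among the 8 members and 36 listed targets with a window to hold a pair of exact 10-base motifs within 13 bases of each other, which 0.074% of all genes with a window did. It lies at chr17:29090861-29090975 on the plus strand, and the pair ended 41 bases before a RefSeq start of the gene. Only exact matches are in capitals, so near matches beside them stay in lower case, and binding was not measured.
Cdkn1a: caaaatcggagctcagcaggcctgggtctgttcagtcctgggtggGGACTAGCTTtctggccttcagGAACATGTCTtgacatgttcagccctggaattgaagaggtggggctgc
*Aen* and *Cdkn1a* thus both fell, and the ratio of *Aen* to *Cdkn1a* CPM was 1.85 ± 0.183 in teNK and 1.249 ± 0.137 in hNK. *Btg2*, an antiproliferative gene that is also an immediate early gene, rose to 507 ± 32.5 CPM in teNK against 153 ± 22.2 CPM in hNK. The polo-like kinase genes *Plk2* and *Plk3*, which lymphocytes also induce on stimulation, rose by log2 fold changes of 1.35 ± 0.22 and 0.62 ± 0.11.

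Among 13 tested genes of death and survival 4 rose and 6 fell, a share of 76.9% called beside the 51.9% of all tested genes. The BH3-only genes, which set off mitochondrial death, went opposite ways. *Pmaip1* (NOXA) rose to 24.1 ± 3.49 CPM in teNK against 2.84 ± 0.645 CPM in hNK, a log2 fold change of 3.13 ± 0.16. *Bbc3* (PUMA) fell to 14.8 ± 1.42 CPM in teNK against 24.5 ± 4.14 CPM in hNK (-0.75 ± 0.12), and the pore-forming *Bax* fell to 11.7 ± 1.35 CPM in teNK against 17.5 ± 2.04 CPM in hNK (-0.58 ± 0.12). The death receptor gene *Fas* rose to 3.22 ± 0.387 CPM in teNK against 0.763 ± 0.283 CPM in hNK.

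Repair and metabolic targets also held calls in both directions. Their shares called, 50% and 57.1%, were close to the 51.9% of all tested genes. Of 6 repair genes 2 rose and 1 fell: *Polk*, a translesion polymerase, rose by 0.62 ± 0.07 and *Ercc5*, an excision nuclease, by 0.47 ± 0.10, while *Xpc*, a damage sensor, fell by 0.60 ± 0.08 (log2). Of 7 tested metabolic genes 2 rose and 2 fell. *Steap3*, a metalloreductase gene, rose to 19.1 ± 1.97 CPM in teNK against 5.53 ± 0.928 CPM in hNK, and *Slc19a2*, a thiamine transporter gene, fell to 16.4 ± 0.563 CPM in teNK against 24.5 ± 2.73 CPM in hNK. *Pml*, a nuclear body gene, was the 1 of 3 tested feedback and secreted factors that rose, by 0.42 ± 0.07, a share of 33.3% called.

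**Figure D4:**
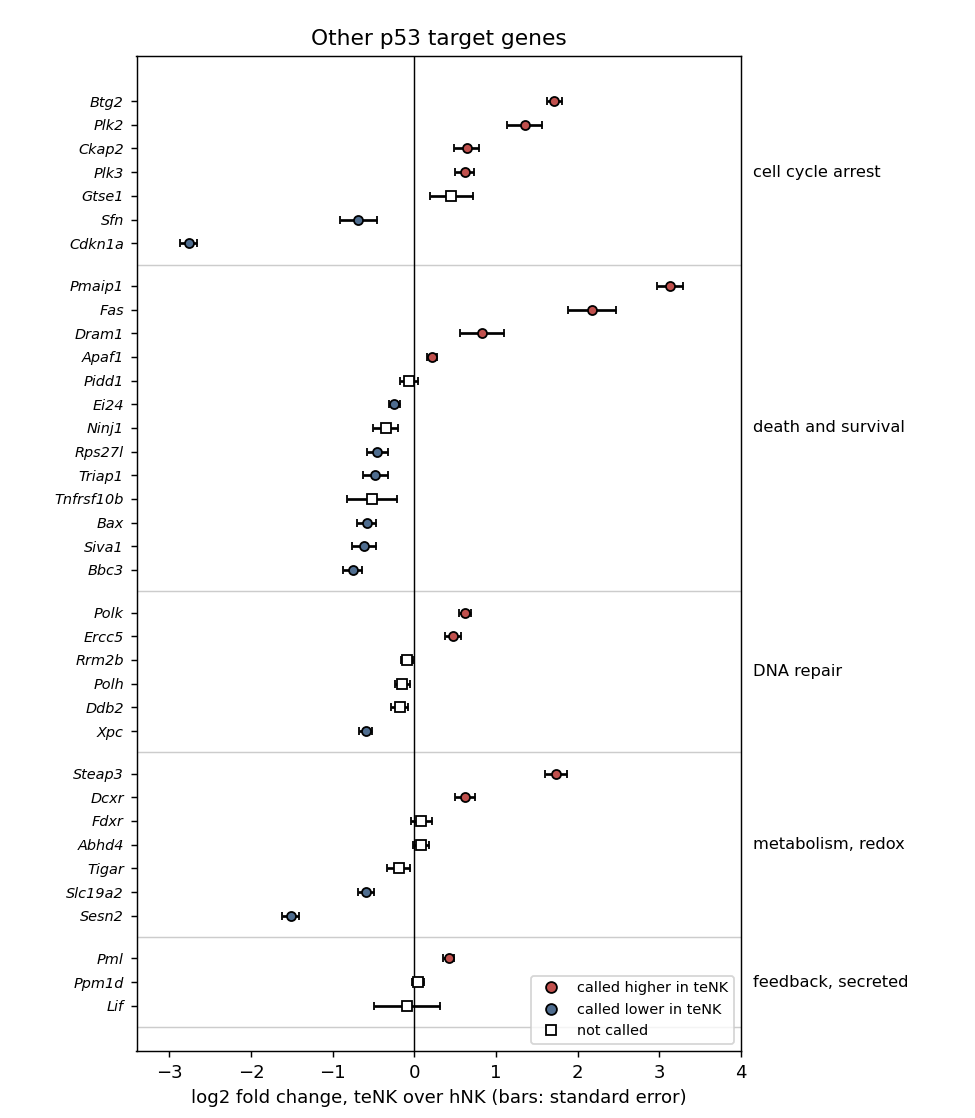
Log2 fold change (horizontal axis, teNK over hNK, with SE) of 36 other p53 targets, ordered within each role; red points were called higher, blue lower, and open squares were not called. Arrest, death, repair and metabolic genes each hold calls in both directions, from *Pmaip1* (3.13) to *Cdkn1a* (-2.76). Of all tested genes 26.4% were called higher and 25.6% lower.

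Of 28 tested regulators and partners of p53 other than *Mdm2* and *Mdm4*, 6 rose, 8 fell and 14 were not called, a share of 50% called that is close to the 51.9% of all tested genes. Among ribosomal protein genes whose products can bind and inhibit MDM2, *Rpl5* fell to 439 ± 28.8 CPM in teNK against 736 ± 33.5 CPM in hNK and *Rpl23* fell to 204 ± 13.97 CPM in teNK against 340.3 ± 19.8 CPM in hNK. *Usp2*, which encodes an enzyme that removes ubiquitin from MDM2, fell to 1.68 ± 0.202 CPM in teNK against 4.71 ± 0.479 CPM in hNK. *Trp53bp2* (ASPP2), a partner that directs p53 to death genes, rose to 93.3 ± 2.67 CPM in teNK against 63.7 ± 4.82 CPM in hNK. Of 19 tested cell cycle genes that p53 is known to lower through p21, 18 rose, none fell and 1 was not called, where 26.4% of all tested genes were called higher. *Mki67*, a proliferation marker among them, measured 278 ± 32.7 CPM in teNK and 58.0 ± 20.01 CPM in hNK. The list was chosen with earlier results of these data known. A part of p53 or p21 in these rises was not tested.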

How the data were processed

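The authors deposited 1 table per library with raw read counts per Ensembl gene. The build GRCm38 and the tools HISAT2 2.1.0, SAMtools and HTSeq come from the submitters' processing notes. The sources used here give neither the annotation release nor the strand setting. The 5 summary lines stayed out of library sizes and tests. Reads in no gene made up 34.2% to 40.5% of a teNK file and 32.3% to 41.2% of an hNK file. GENCODE M21 (GRCm38) gave symbols, coordinates and exon lengths for 54809 identifiers. No pair of the 12 within groups agreed within sampling noise (chi-square 3.51 to 11.3 per degree of freedom), so all 8 libraries were used.

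Counts were tested in R 4.3.3 with edgeR 4.0.16 (filterByExpr, TMM, quasi-likelihood F test on group, Benjamini-Hochberg adjustment), and the script was checked on simulated data. The SE is the log2 fold change over the square root of F. The edgeR result was recomputed under 19 alternatives, among them DESeq2 1.42.0 and limma 3.58.1. The floor of 3 counts covers counting error only, whereas SDs and SEs include the spread between libraries. Members and lists were chosen with earlier results of these data known. Named were all members and paralogs, *Cdkn1a*, *Wrap53* and up to 4 called genes per other list with the smallest adjusted p (the 2 highest where none was called), plus the genes nearest to *Trp53* and *Mdm2*; genes named outside this rule were chosen after their values were seen. Single values of 2 listed genes are not reported here.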

Additional observations from a re-analysis of the deposited data

Results flagged for a closer look

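In 6 of 132 groups of 4 libraries checked over the named genes, 1 library stood apart by Dixon's criterion for a gap over the group's range, and chance flags about 1 in 20. None was a member. *Cdkn1a* had 6.65 CPM in teNK replicate 1 (0.922 of the range) and *Trp53inp2* 40.4 CPM in the same library (0.925). *Xpc* had 32.7 CPM in teNK replicate 4 (0.872), *Top2a* 160.3 CPM in teNK replicate 3 (0.901), and *Klf2* 976 CPM in teNK replicate 4 (0.872) and 165 CPM in hNK replicate 4 (0.874).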

How the results depend on the processing

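Tested against a change of 1.5-fold (glmTreat), 1 member stayed called higher and 1 lower, 5 and 2 other p53 targets, and 1297 and 850 genes in all. With library totals alone 3 members were higher and 3 lower, and 2709 genes were higher and 5114 lower, against 3665 and 3557 in the reported fit; *Zmat3* changed sign, to -0.0093. Without hNK replicates 3 and 4, 3 members were called higher and 2 lower, and 3461 genes in all were higher and 3306 lower. Leaving out 1 library at a time left 5 members higher and 2 to 3 lower, 12 to 13 other targets higher and 10 to 12 lower, and 3380 to 3766 genes higher and 3203 to 3497 lower. All other counts stayed within 1.5 times. *Aen* and *Gadd45a* were called in the same direction under all 19 alternatives; *Trp53*, *Sesn1* and *Trp53inp1* lost the call in glmTreat only. Replicate numbers are not said to pair libraries, and deviations of same-numbered libraries correlated at -0.107 to 0.145, 1 of 4 best with its own number; with the replicate block 5 members rose and 2 fell. Among the members, *Phlda3* had too few reads to be tested in the reported fit. With no filter on low counts, and without hNK replicate 2, all 10 members were tested, and 5 rose and 2 fell in both.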

Other observations

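Of 11 genes for FOXO factors and their known targets, *Ccng2* among them, 8 rose and 1 fell, where 26.4% of all tested genes were called higher and 25.6% lower. *Foxo3* itself measured 174 ± 1.34 CPM in teNK and 87.5 ± 3.31 CPM in hNK (SD, n = 4 each; log2 fold change 0.99 ± 0.06), and *Klf2*, a regulator of lymphocyte migration, 860.5 ± 77.8 CPM in teNK and 197 ± 21.2 CPM in hNK. *S1pr1*, a receptor gene for exit from lymphoid organs, fell to 19.1 ± 1.23 CPM in teNK against 45.1 ± 5.65 CPM in hNK. This FOXO list was chosen with earlier results of these data known.

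Among 7073 protein-coding genes whose mean log2 CPM reached 4, those whose centred log2 CPM over the 8 libraries lay nearest to *Trp53* were *Mocs2*, *Mrps5*, *Cwc27*, *Gm2000* and *Ndufs8*, at root mean square distances of 0.0223 to 0.0536. Nearest to *Mdm2* were *Pcmtd2*, *Trim33*, *Wdr7*, *Rc3h1* and *Zfand6*, at 0.0248 to 0.0322. These distances are descriptions, with no test.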
